A study of Mus musculus with 5 samples.

Results

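The integrated stress response is described here through 10 genes: Nupr1, a small nuclear stress protein, and 9 genes of the branch run by the transcription factors ATF4 and CHOP (Atf4, Atf5, Ddit3, Trib3, Chac1, Asns, Sesn2, Ddit4 and Ppp1r15a). They were found by matching the 53700 Ensembl gene IDs of the count table to gene symbols. Each of the 10 had counts, and 9 of them were among the 15724 genes that received an adjusted p-value. Nupr1 was chosen by its rise in the comparison reported here, so its difference between the groups is given as a description, without a test.

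In this response, kinases that sense unfolded protein, missing amino acids, viral RNA, haem deficiency or mitochondrial trouble phosphorylate the translation factor eIF2. Protein synthesis then slows, while the mRNA of Atf4 is translated more through upstream reading frames in its leader, and ATF4 switches on genes for amino acid supply and, with CHOP, genes that can lead to cell death. DAergic neurons of the midbrain, which carry a high load of calcium and dopamine metabolism, are among the neurons in which this pathway has been studied. Counts per gene of ribosome-bound mRNA show how much of an mRNA was captured, and not which of its reading frames was translated.

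RNA bound to tagged ribosomes was sequenced from the midbrain of C57BL/6 mice aged 4 months, at 1 month after the deletion. The 3 control libraries (Esrrg WT, replicates 2, 3 and 4) came from mice of genotype L10a;Esrrg WT, and the 2 others (Esrrg Flox, replicates 2 and 4) from L10a;Esrrg Flox mice, in which Cre removes part of Esrrg, the gene of the nuclear receptor ERRγ. Both groups carried the L10a transgene, a GFP-tagged ribosomal protein switched on by Cre, and both received AAV:THCre, a virus in which a tyrosine hydroxylase promoter drives Cre, so that tag and deletion depended on the same virus. Midbrains of several animals were pooled for each sample before the ribosomes were captured, so p-values measure the spread between these pools and not between single mice.

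Each library held 20635855 to 23105058 counts assigned to genes, at which 3 counts correspond to 0.130 to 0.145 CPM (counts scaled to a common library size). Esrrg had 1763, 1643 and 1726 normalized counts in the WT libraries and 1504 and 1170 in the Flox libraries (log2 fold change -0.35, SE 0.133, adjusted p = 0.0753, DESeq2), a sum over the whole gene that does not measure the deleted exon. Th, the tyrosine hydroxylase of dopamine synthesis, had 10890, 9849 and 12810 against 10220 and 10950 (log2 fold change -0.08, adjusted p = 0.810). RNA of other cells was plentiful too, and no input or uncaptured RNA was compared here: the astrocyte gene Aldoc had 30740 to 41730 normalized counts. Normalized counts are counts divided by DESeq2's size factors.

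Of the 10 genes, 4 have in their promoter the 9-letter core TGATGNAAN of the C/EBP-ATF response element, the DNA element to which ATF4 binds with a C/EBP partner. The runs are shown because they mark which members carry this letter pattern beside their own start site. They were read from the RefSeq promoters of GRCm38.p6 (250 bases before to 50 after each start, both strands searched) and are printed 5′ to 3′ on the strand that holds the match, with the match in capitals and 10 bases on each side.
Nupr1: aagccctgtcTGATGCAATctggcccttt
Asns: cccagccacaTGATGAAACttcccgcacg
Chac1: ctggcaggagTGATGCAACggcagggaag
Trib3: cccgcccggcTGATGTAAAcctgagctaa

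The Nupr1 run lies at chr7:126625563-126625591 on the plus strand, opposite to the gene, and its match, inside an annotated exon of Nupr1 in GENCODE M21, begins 111 bases before the RefSeq start. The Asns run, at chr6:7693214-7693242 on the minus strand of the gene itself, is in an Asns exon of that annotation, with the match 23 bases before the start. The Chac1 run, at chr2:119351038-119351066 on the minus strand, is intergenic, opposite to the gene and 194 bases before the start. The Trib3 run is at chr2:152344029-152344057 on the plus strand, opposite to the gene, and its match begins 13 bases after the RefSeq start, in sequence that GENCODE M21 leaves outside the Trib3 gene. Across the genome 3.95% of 32851 promoters, and 4.50% of 27025 genes, hold this pattern. The estrogen-related receptor element TCAAGGTCA, searched in the same windows, was in 0 of the 10 genes and in 0.466% of all genes. A match is a description of letters and no evidence of binding, and these windows leave out introns and distant elements. For Nupr1 the paper lists a chromatin immunoprecipitation site of the related receptor ERRα, in human sequence.

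Nupr1 was the member with the large difference. Its normalized counts were 102.2, 73.37 and 53.80 in the WT libraries and 248.8 and 533.8 in the Flox libraries. Both Flox libraries lay above all 3 WT libraries, and Flox replicate 4 held more than Flox replicate 2 and all WT libraries. The means were 76.46 ± 24.34 (SD, n = 3) and 391.3 ± 201.5 (SD, n = 2), a fitted 5.13-fold difference (log2 fold change 2.36, SE 0.328). Without Flox replicate 4 the log2 value was 1.70. In these bulk libraries more cells that express Nupr1 and more Nupr1 RNA per cell cannot be told apart.

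**Figure D1:**
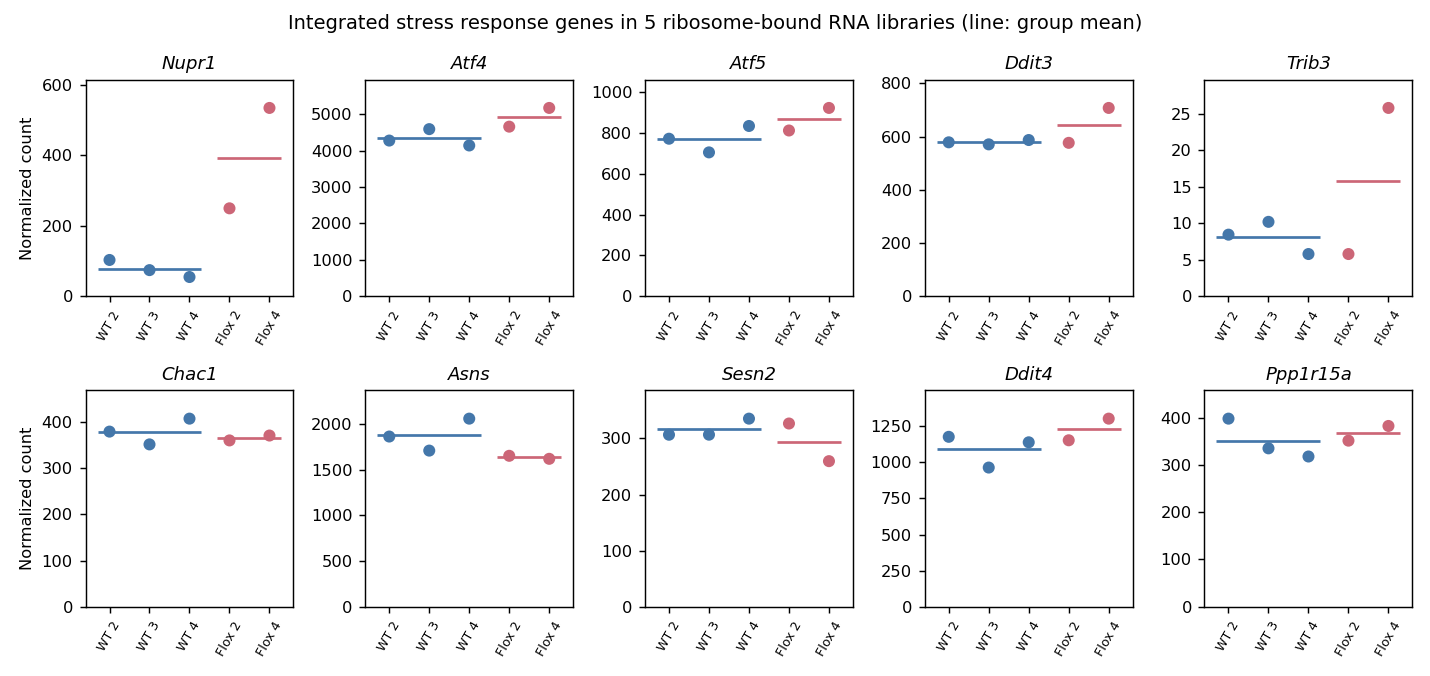
Normalized count (vertical axis, from 0, a scale of its own in each panel) of the 10 genes in the 3 Esrrg WT (blue) and 2 Esrrg Flox (red) libraries, with a line at each group mean. Nupr1 is at 248.8 and 533.8 in the Flox libraries against at most 102.2 in the WT libraries. The libraries of both groups overlap for 7 of the 9 other genes. Of all genes tested, 19.9% had both Flox libraries above all WT libraries and 22.5% had both below, so overlap is common.

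Nupr1 was chosen for its difference, so its size is no measure for the other genes. The other stress genes, apart from the barely detected Trib3, had log2 fold changes near 0. Of the 8 with an adjusted p-value, 0 passed the test at an adjusted p under 0.05 (DESeq2), 0 had an unadjusted p under 0.05, and edgeR's quasi-likelihood test also passed 0 of the 9, with 0 at an unadjusted p under 0.05. Among all genes tested, 4.20% passed as higher in Flox and 4.05% as lower, so a share of 0 in so few genes is close to that background. For the 8 genes, the 95% Wald intervals of the log2 fold change ran at most from -0.46 to 0.44. Their log2 fold changes lay between -0.20 and 0.18, 5 above 0 and 3 below. With Trib3 included, the median of the 9 was 0.15, beside -0.01 over all genes tested.

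Atf4 encodes the transcription factor at the centre of the response and was the most abundant member. It had 4277, 4592 and 4142 normalized counts in the WT libraries and 4660 and 5175 in the Flox libraries. The Flox values both exceeded the highest WT value, the lower of them by little, and the log2 fold change of 0.18 (SE 0.105, 95% interval -0.02 to 0.39) did not pass (adjusted p = 0.332). Across all genes tested, 19.9% had both Flox libraries above all WT libraries. Atf5, a related factor whose mRNA is also translated under stress, had 772.3, 705.2 and 834.9 against 812.7 and 923.5, and the groups overlapped (log2 fold change 0.17, SE 0.138, 95% interval -0.10 to 0.44, adjusted p = 0.552). In GENCODE M21 4.11% of the exon bases of Atf5 are shared with Nup62 on the opposite strand. The library kit did not keep strand, so reads there cannot be assigned.

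Ddit3 encodes CHOP, the factor tied to stress-induced cell death. Its 578.4, 570.7 and 587.0 normalized counts in the WT libraries were nearly equal, and the Flox libraries had 576.4 and 707.8. One Flox library thus sat among the WT libraries and the other above them, and the log2 fold change was 0.15 (SE 0.146, 95% interval -0.14 to 0.44, adjusted p = 0.649). Without Flox replicate 4 it was -0.01. Of the exon bases of Ddit3, 3.97% are shared with Mars on the opposite strand and 6.13% with a second record of the same name that had 0 counts in all 5 libraries.

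The remaining genes act downstream. Trib3, a pseudokinase induced by CHOP and ATF4 that dampens the response, was barely detected, with 8, 10 and 6 raw counts in the WT libraries and 6 and 26 in the Flox libraries. Flox replicate 4 stood apart, and Flox replicate 2 was as low as the lowest WT library. The fitted log2 difference of 0.96 had an SE of 0.850 and a 95% interval from -0.71 to 2.62, and Trib3 received no adjusted p-value because its mean count fell under DESeq2's filter. Without Flox replicate 4 its log2 value was -0.50.

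Chac1, which breaks down glutathione, had 379.3, 351.6 and 407.4 normalized counts against 360.2 and 370.8, and both Flox libraries lay inside the WT range (log2 fold change -0.05, SE 0.160, 95% interval -0.37 to 0.26, adjusted p = 0.913). Asns makes asparagine and is a standard readout of ATF4 activity. It had 1863, 1709 and 2059 in WT against 1652 and 1619 in Flox, so that both Flox libraries lay below all WT libraries, as in 22.5% of all genes tested. The log2 fold change of -0.20 (SE 0.120, 95% interval -0.43 to 0.04) did not pass (adjusted p = 0.361).

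Sesn2 and Ddit4, both inhibitors of the growth kinase complex mTORC1, differed in sign. Sesn2 had 306.6, 306.7 and 335.3 normalized counts against 326.6 and 259.5 (log2 fold change -0.11, SE 0.180, adjusted p = 0.823), and without Flox replicate 4 its log2 value was 0.04. Ddit4 had 1177, 964.0 and 1139 against 1153 and 1303 (log2 fold change 0.17, SE 0.135, adjusted p = 0.554). In each of them 1 Flox library lay within the WT range. Ppp1r15a encodes GADD34, which ends the response by bringing a phosphatase to eIF2. It had 398.2, 335.3 and 318.0 against 351.6 and 382.7, all Flox values inside the WT range (log2 fold change 0.07, SE 0.172, 95% interval -0.27 to 0.40, adjusted p = 0.897).

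Per kilobase of exon, a rough scale for comparing levels of different genes, Nupr1 was among the scarce members in WT and moved up the order in Flox. In WT the mean level in normalized counts per kb was 1839 for Atf4, 686.3 for Asns, 623.0 for Ddit4, 386.8 for Atf5, 337.8 for Ddit3, 231.8 for Chac1, 119.3 for Ppp1r15a, 91.0 for Sesn2, 30.4 for Nupr1 and 3.83 for Trib3. Only Asns and Ddit4 had ranges that overlapped among neighbours in that order. In Flox, Nupr1 reached 155.6 per kb, from 98.97 to 212.3, which overlapped Ppp1r15a (119.7 to 130.3) and lay above Sesn2 (74.68 to 93.99) and below Chac1 (220.0 to 226.5). Exon lengths were those of all annotated exons of a gene joined in GENCODE M21, not of the transcript expressed, which can shift the order.

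Among the other genes of the pathway, those of eIF2 had a median below that of all genes tested. Of the 17 genes of the eIF2 kinases and eIF2 machinery, 1 passed as higher and 1 as lower, beside 4.20% and 4.05% of all genes tested. Their median log2 fold change was -0.17, beside -0.01 over all genes tested. The gene that rose was Eif2s2, a subunit of eIF2 itself, with 5639, 5334 and 6166 normalized counts against 6859 and 8779 (log2 fold change 0.45, SE 0.128, adjusted p = 0.0106). The gene that fell was Eif2b2, a subunit of the factor that recharges eIF2, with 855.5, 812.2 and 978.1 against 716.6 and 562.7 (log2 fold change -0.46, SE 0.154, adjusted p = 0.0379). With edgeR, and without WT replicate 2, WT replicate 3 or Flox replicate 4, 0 genes of this list passed in either direction, and without WT replicate 4 Eif2b2 did not. With the replicate block Eif2b2 did not pass either. With TMM sizes, with total counts or with the filter on low counts, 2 genes of the list passed as lower. At an unadjusted p under 0.05, 2 genes were higher and 4 lower. Of the 17, 8 had both Flox libraries below all WT libraries (22.5% of all genes tested) and 3 had both above (19.9%). The 4 kinases, named after their values were seen, had log2 fold changes of -0.35 for Eif2ak1 (HRI, the haem sensor, adjusted p = 0.0516), -0.14 for Eif2ak2 (PKR, the sensor of viral RNA, adjusted p = 0.740), -0.08 for Eif2ak3 (PERK, the sensor of unfolded protein, adjusted p = 0.863) and -0.14 for Eif2ak4 (GCN2, the sensor of missing amino acids, adjusted p = 0.792). Dele1, which relays mitochondrial stress to HRI, was at -0.40 (adjusted p = 0.0722). Oma1, of the same list, was at -0.28 (adjusted p = 0.584). Dele1 and Oma1 were also named after their values were seen.

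Of 25 other ATF4 pathway targets, 1 had 0 counts in all libraries (Fgf21, a stress hormone) and 23 were tested. Of these, 1 passed as higher and 2 as lower, beside 4.20% and 4.05% of all genes tested, and the median log2 fold change was 0.00. Atf3, a factor of the same family that is also an injury gene of neurons, rose from 71.64, 46.88 and 42.27 normalized counts to 84.54 and 139.2 (log2 fold change 1.06, SE 0.358, adjusted p = 0.0410). Slc6a9, a glycine transporter, fell from 363.5, 257.8 and 514.0 to 195.0 and 161.0 (log2 fold change -1.09, SE 0.261, adjusted p = 0.00181). Vldlr, a lipoprotein receptor induced under stress, fell from 778.6, 765.3 and 678.3 to 544.7 and 442.4 (log2 fold change -0.59, SE 0.151, adjusted p = 0.00428). For all 3 the libraries of the groups did not overlap. The 1 higher call was gone without any single WT library, without Flox replicate 4, with edgeR and with the replicate number as a block, and both lower calls were gone without Flox replicate 4 and with edgeR. At an unadjusted p under 0.05, 3 genes of the list were higher and 3 lower.

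Amino acid enzymes and the neighbouring branch of the unfolded protein response were examined next. Among all genes tested, 4.20% passed as higher and 4.05% as lower, and the shares in lists this small are close to that background. Of 11 serine and one-carbon enzymes 0 passed (1 had an unadjusted p under 0.05) and the median log2 fold change was 0.07. Of 20 cytosolic aminoacyl-tRNA synthetases 1 passed, the lysine enzyme Kars, which fell from 3019, 2881 and 2927 normalized counts to 2409 and 2217 (log2 fold change -0.35, SE 0.102, adjusted p = 0.0153). The median of the synthetases was -0.02. Of 23 genes of the ATF6 and XBP1 branch, which build the folding machinery of the endoplasmic reticulum, 1 passed: the chaperone Hsp90b1 rose from 4631, 4794 and 4416 to 5824 and 7981 (log2 fold change 0.58, SE 0.136, adjusted p = 0.00123). The median of that list was 0.16. At an unadjusted p under 0.05, 7 genes were higher and 0 lower, beside 1531 and 1661 of the 15724 genes tested. Of the 23, 11 had both Flox libraries above all WT libraries (19.9% of all genes tested) and 1 had both below (22.5%). Without Flox replicate 2, 4 genes of the list passed. Kars was not called with edgeR, with the replicate block or without WT replicate 2, WT replicate 3 or Flox replicate 4, and Hsp90b1 not with edgeR or without Flox replicate 4.

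**Figure D2:**
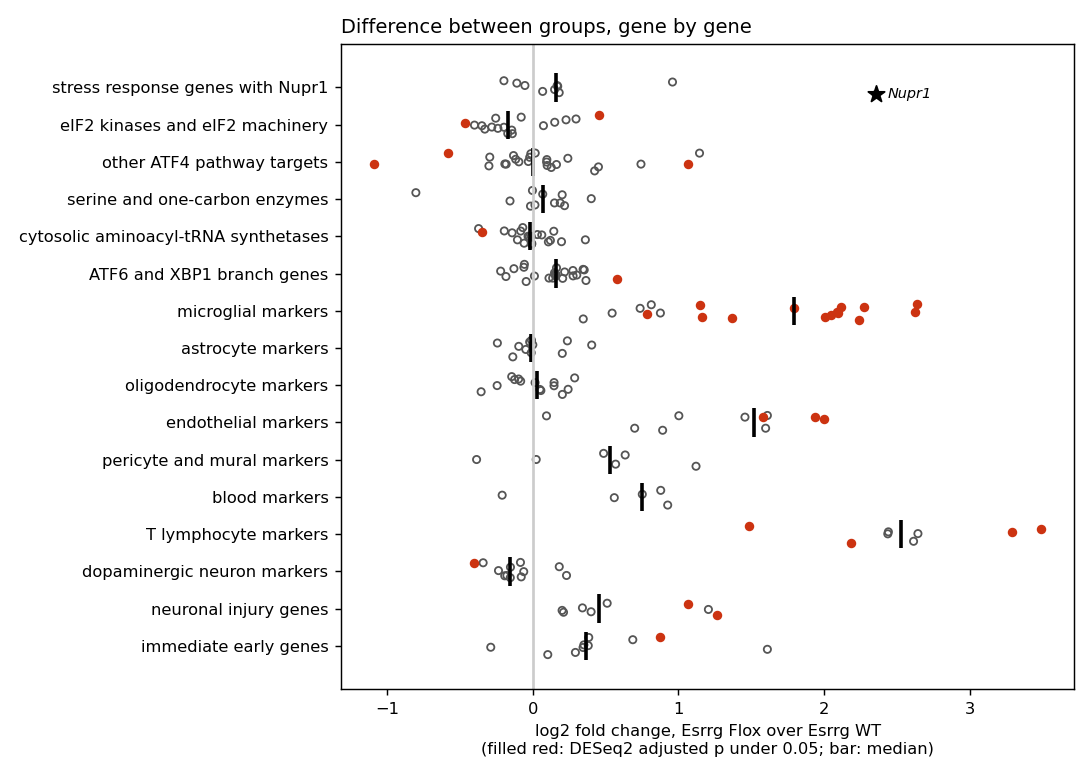
log2 fold change of Esrrg Flox over Esrrg WT (horizontal axis) for each gene with counts of 16 lists, 1 row a list, with filled red points for an adjusted p under 0.05 in DESeq2, open points for the others, a star for Nupr1, which is not tested, and a bar at the list's median. Nupr1, which was chosen for this difference, is at 2.36. Microglial markers run from 0.35 to 2.64 (median 1.79) and T lymphocyte markers from 1.48 to 3.49 (median 2.53). Other ATF4 pathway targets run from -1.09 to 1.145 (median 0.00).

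Most microglial markers were higher in Flox. Of 19 microglial markers 14 passed as higher, beside 4.20% of all genes tested, and 0 as lower, with a median log2 fold change of 1.79. For 17 of them the Flox values both exceeded every WT value, beside 19.9% of all genes tested. Their summed normalized counts were 3428, 4151 and 2122 in WT and 7555 and 16970 in Flox, and none of them was at 0. The 5 with the smallest adjusted p were Tyrobp (log2 fold change 2.09, adjusted p = 5.96e-07), Trem2 (2.05, adjusted p = 6.01e-07), Cd68 (1.79, adjusted p = 6.61e-04), Lyz2 (2.63, adjusted p = 0.00194) and C1qa (2.28, adjusted p = 0.00367), genes of the microglial lipid receptor and its adaptor, of lysosomes and of complement. Without Flox replicate 4 only 1 of the 19 passed, without WT replicate 2 it was 6, without WT replicate 4 it was 7 and with the replicate block it was 3, and the median without Flox replicate 4 was 1.16. The part that other cells' RNA has in the difference of Nupr1 was not tested.

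The rise of glial markers was not shared by all glia. Of 11 astrocyte markers 0 passed and all 11 overlapped between the groups. Of all genes tested, 19.9% had both Flox libraries above all WT libraries and 22.5% had both below. The summed levels of the astrocyte markers were between 77370 and 112400 in WT and 81370 and 105600 in Flox. Of 14 oligodendrocyte markers 0 passed either (median log2 fold change 0.03), with sums of 119400 to 176300 and 135800 to 162200. At an unadjusted p under 0.05 there was 1 astrocyte marker, higher, and 1 oligodendrocyte marker, lower. Without WT replicate 4, 1 astrocyte marker and 2 oligodendrocyte markers passed as higher, and without Flox replicate 2, 1 astrocyte marker did. Cells of vessels and blood gave mixed counts, given here beside the 4.20% of all genes tested that passed as higher. Of 10 endothelial markers, 9 were tested and 3 passed as higher (Cldn5 1.58, Flt1 2.0 and Slco1a4 1.94 on the log2 scale), with summed levels of 135.5 to 311.8 in WT and 333.3 and 835.1 in Flox. Of 6 pericyte and mural markers and 5 blood markers 0 passed. The most abundant of each, Vtn and the globin gene Hbb-bs, had 98.96 to 388.3 and 362.2 to 1044 normalized counts in WT, and 534.1 and 254.5, and 1480 and 994.1, in Flox. Of 8 T lymphocyte markers, 6 were tested and 4 passed as higher, the chemokine Ccl5 (log2 fold change 2.18, adjusted p = 5.71e-09), the co-receptor chains Cd8a (3.49, adjusted p = 1.74e-05) and Cd8b1 (3.29, adjusted p = 0.00752) and the receptor segment Trbc2 (1.48, adjusted p = 0.00565), with sums of 87.43 to 142.7 in WT and 411.2 and 780.4 in Flox. Without Flox replicate 4 or without WT replicate 4, 0 endothelial and 0 T lymphocyte markers passed, and with edgeR 0 endothelial markers did. With the replicate block 1 endothelial and 1 T lymphocyte marker passed.

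Neuronal lists were examined beside them. Of 12 dopaminergic neuron markers 1 passed, the growth factor receptor Ret, which fell by 0.40 on the log2 scale (adjusted p = 0.00291), and the list's median was -0.15. Their summed levels were 53780 to 63410 in WT and 54450 and 57200 in Flox, and the most abundant, Aldh1a1, had 9813 to 13070 and 10180 and 11390. Of 8 neuronal injury genes 7 were tested and 2 passed as higher, Atf3 and the neuropeptide Gal, which had 158.0, 254.8 and 114.3 normalized counts in WT against 407.3 and 438.4 in Flox (log2 fold change 1.27, SE 0.272, adjusted p = 3.24e-04). The median of the injury list was 0.46. At an unadjusted p under 0.05, 6 of its genes were higher and 0 lower, beside 1531 and 1661 of the 15724 genes tested. For 5 of the 8 both Flox libraries lay above all WT libraries, beside 19.9% of all genes tested. Over all genes tested, 4.20% passed as higher and 4.05% as lower. Without Flox replicate 2, 4 injury genes passed. Of 10 immediate early genes 9 were tested and 1 passed, Fosb (0.87, adjusted p = 0.0389). Without Flox replicate 4 and with edgeR, 0 genes of these 3 lists passed, and with the replicate block 1 injury gene and 0 immediate early genes did.

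**Figure D3:**
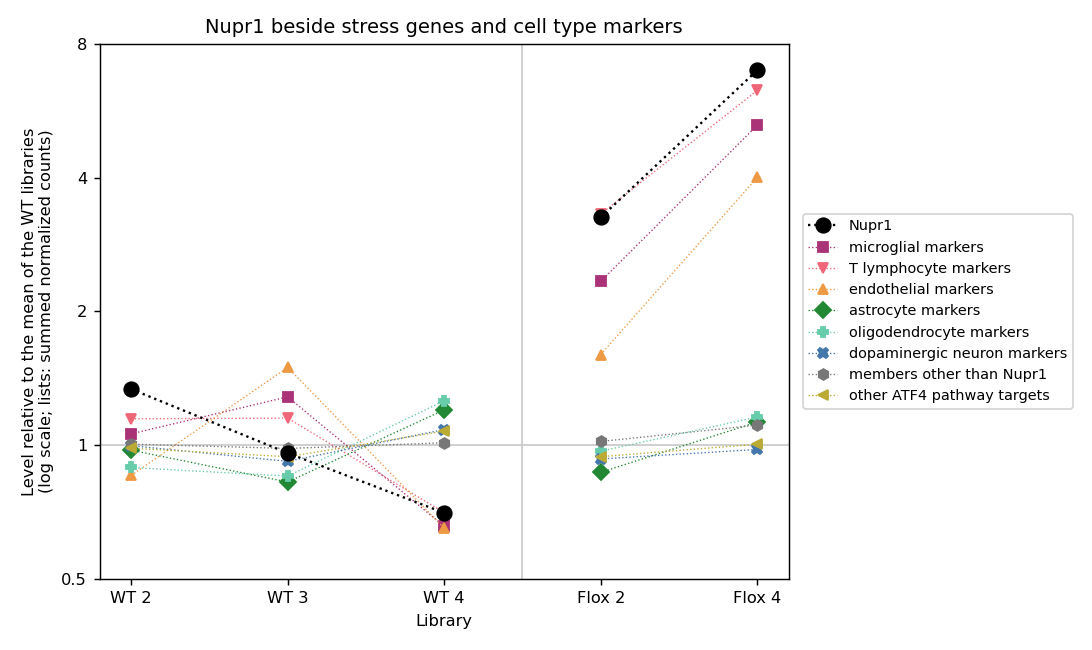
Level of Nupr1 and summed level of 8 gene lists in each library, divided by the mean of the 3 WT libraries (log scale, dotted lines join libraries of a group only to guide the eye). Nupr1 is at 3.25 and 6.98 in the Flox libraries, the microglial sum at 2.34 and 5.25, the T lymphocyte sum at 3.31 and 6.29, and the sum of the 9 other stress genes at 1.02 and 1.11. Abundant genes, such as Atf4 among the stress genes, weigh most in a sum. Trib3, too scarce to show in it, is at 0.71 and 3.18.

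Nupr1 also differed between libraries of the same group. The comparison of groups takes its SE from the spread of these same libraries. Its log2 value for Nupr1 was 1.70 without Flox replicate 4, so this view is not independent of that comparison. In Flox replicate 4 Nupr1 was 1.10 higher on the log2 scale than in Flox replicate 2. All 19 microglial markers were also higher in Flox replicate 4 (median 1.06, from 0.05 to 1.58), and so were 8 of 8 T lymphocyte markers (median 0.98) and 9 of 10 endothelial markers (median 1.13). The 8 stress genes other than Nupr1 and Trib3 differed by -0.33 to 0.30 and the median over all genes tested was -0.01. Astrocyte markers (median 0.37) and oligodendrocyte markers (median 0.24) were higher in Flox replicate 4 by less, dopaminergic markers by a median of 0.00, and blood markers were lower in 5 of 5. Trib3 had the largest difference of the members, 1.99, on 6 and 26 counts. Other ATF4 pathway targets had a median of 0.09, from -0.31 to 1.89, with Atf3 at 0.71.

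Among the WT libraries, Nupr1 was lowest in replicate 4, by 0.68 on the log2 scale below the mean of replicates 2 and 3. All 19 microglial markers were lowest in that library too (median -0.86, from -1.84 to -0.27), as were 7 of 8 T lymphocyte markers (median -0.97), 5 of 5 blood markers (-1.25), 4 of 6 pericyte and mural markers (-0.80) and 6 of 10 endothelial markers (-0.64). The astrocyte markers went the other way, with 11 of 11 highest there (median 0.43), and so did 14 of 14 oligodendrocyte markers (median 0.49). The 8 stress genes other than Nupr1 and Trib3 lay between -0.20 and 0.21. Trib3 was at -0.60, near Nupr1, on 8, 10 and 6 raw counts. Other ATF4 pathway targets had a median of 0.07, from -0.50 to 0.75, with Atf3 at -0.45. Between the remaining WT libraries the likeness stopped: Nupr1 was higher in replicate 2 (102.2) than in replicate 3 (73.37), and the microglial sum was lower (3428 against 4151). With 1 library on a side, these differences within groups have no test.

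**Figure D4:**
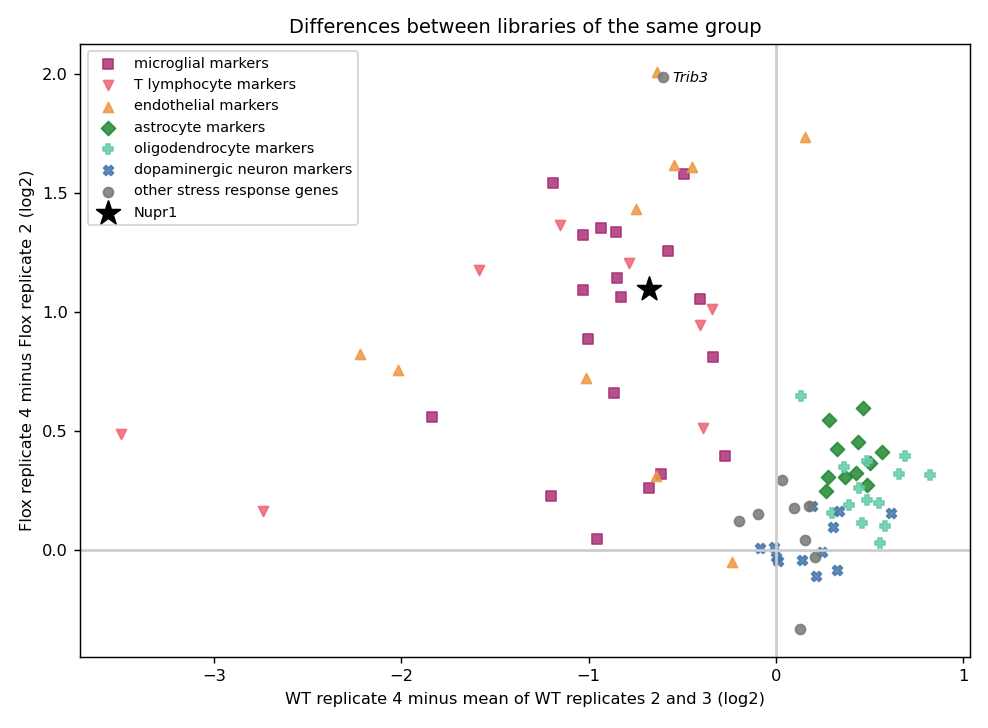
log2 difference of WT replicate 4 from the mean of WT replicates 2 and 3 (horizontal) against that of Flox replicate 4 from Flox replicate 2 (vertical), 1 point a gene. Nupr1 (star, -0.68 and 1.10) lies in the upper left with the microglial markers and most T lymphocyte and endothelial markers, and the stress genes other than Trib3 lie near 0.

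The genes whose levels ran most like that of Nupr1 over the 5 libraries were ordered by the root mean square difference of log2(normalized count + 1), each gene centred on its own mean, among 12845 genes with a mean of at least 50 normalized counts. The nearest 10 were Tgfbi (0.169), H2-Eb1 (0.175), Trem2 (0.207), Cd52 (0.212), Lgals3 (0.229), C1qa (0.253), Tyrobp (0.274), Ccl5 (0.285), Aif1 (0.291) and Lyz2 (0.292). Of them 6 are on the microglial list and 1, Ccl5, on the T lymphocyte list, and H2-Eb1 belongs to the MHC genes, whose near copies make its count uncertain. The order uses the difference between the groups and is a description of 5 libraries.

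The first 100 of that order held 13 of the 18 microglial markers abundant enough to be ordered, both endothelial markers, the 1 T lymphocyte marker, 2 of 7 neuronal injury genes and 1 of 23 other ATF4 targets, which was Atf3 at place 78. They held 0 of the 8 stress genes, of which Atf4 stood nearest at place 2569, followed by Ddit4 at 2694, Ddit3 at 2843, Atf5 at 2955 and Ppp1r15a at 3527, with Chac1 at 6976, Sesn2 at 9480 and Asns at 9731. They also held 0 of 11 astrocyte, 0 of 14 oligodendrocyte and 0 of 12 dopaminergic neuron markers. When patterns were scaled to the same length, so that only their shape counted, 0 of the 10 nearest genes were kept and 2 of 18 microglial markers were in the first 100. The median place of the microglial markers was then at 2.27% of the order and that of the 8 stress genes at 24.9%, compared with 0.160% and 25.2% on the first measure.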

How the data were processed

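The authors deposited raw counts per Ensembl gene for 5 BAC-TRAP libraries, with no normalization. Per the labels, reads were trimmed with Trim Galore 0.6.6, aligned with STAR 2.7.9a to GRCm39 and counted with HTSeq 0.11.3; the methods name other versions and GRCm38, so no coordinate is given for the counts. HTSeq's lines that name no gene stayed out of all totals (no feature 3.18 to 4.45%, ambiguous 5.62 to 5.78%). Symbols and exon lengths came from GENCODE M21 (1607 IDs had none), promoters from RefSeq (GRCm38.p6), in which all 10 genes matched.

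Genes with at least 1 count (29407) were fitted in DESeq2 1.42.0 (R 4.3.3) by group, as in the study's methods, with a two-sided Wald test and Benjamini-Hochberg adjustment over all genes. "Rose" and "fell" mean an adjusted p under 0.05 (for Nupr1, no test). edgeR 4.0.16 (quasi-likelihood), TMM sizes, total counts, a filter (10 counts in 2 libraries), a fold of at least 1.5, the replicate block and leaving out each library were alternatives. No 2 libraries agreed within sampling noise (chi-square per degree of freedom 4.25 to 45.8). Counting limits cover counting error only.

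Named genes were the 10 members, up to 5 genes per list and direction that passed, Esrrg, Th, the most abundant marker of each cell type (1 is not reported here) and the 10 nearest to Nupr1; others are marked. The members and lists were chosen with earlier results of these data known.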

Additional observations from a re-analysis of the deposited data

How the results depend on the processing

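Of the stress genes other than Nupr1, 0 passed under all 10 alternative fits and with a fold of at least 1.5 (lowest adjusted p 0.240, with total counts). The sign of 4 members turned: without Flox replicate 4, Ddit3 was -0.00939, Trib3 -0.498 and Sesn2 0.0428 on the log2 scale, and without WT replicate 4 Ppp1r15a was -0.00164. Leaving out 1 library gave -0.00939 to 0.290 for Ddit3, -0.498 to 1.67 for Trib3, -0.286 to 0.0428 for Sesn2, -0.00164 to 0.167 for Ppp1r15a and 1.70 to 2.81 for Nupr1. It gave 1 to 14 microglial markers passed with a median of 1.16 to 2.23, and 0 to 1 higher and 0 to 2 lower calls among other ATF4 targets. With edgeR the latter were 0 and 0. Over all genes edgeR called 147 higher and 89 lower, against 660 and 637 in DESeq2, and without Flox replicate 4 it was 33 and 39. Without a Flox library the lone one is assumed to vary as WT does. The cause was not tested.

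Replicate numbers 2 and 4 occur in both groups. Same-numbered libraries deviated together weakly (r = 0.153 and 0.126 over 12846 genes), with 2 pairs and no label of a shared batch, so they were not taken as pairs. With the replicate block, 3 microglial markers passed, 0 other ATF4 targets passed as higher and 1 as lower, 0 stress genes passed, 0 genes of the eIF2 list passed as lower, 1 endothelial, 1 T lymphocyte, 3 blood and 1 mural marker passed as higher, and 221 and 255 genes were called. Among genes nearest to Nupr1, 0 of 10 were kept by shape alone and 4 with a mean count of at least 200. Trib3, with 6 to 26 counts, is limited by depth.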
